A study of Homo sapiens with 16 samples.

Results

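The comparison set mesenchymal cells that carry a CRISPR guide against KMT2D (C1-sgKMT2D-Mes, genotype KMT2D-KO) against unedited mesenchymal cells (C2-Mes, genotype wild type), over all genes. The libraries were chosen by the group names in their titles, which gave 4 of the 16 RNA-seq libraries of the study, 2 per group. All groups are HMLER, human mammary epithelial cells transformed in culture with telomerase, SV40 early-region antigens and an oncogenic HRAS, and all were grown in the same mix of MEGM, DMEM and F12 with insulin, EGF and hydrocortisone. C1 is described as a stably epithelial line, while C2, and C1 cells with a guide against KMT2D or EED, are plastic and give both an epithelial (Epi) and a mesenchymal (Mes) population. The epithelial counterparts of the compared groups, C1-sgKMT2D-Epi (KMT2D-KO) and C2-Epi (wild type), serve here to show which differences were also present in the epithelial state; C1-sgEED-Mes (EED-KO), C1-sgControl and C1 are cited for a few values only.

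The KMT2D-guide and unedited mesenchymal groups differ in more than the guide. C1-sgKMT2D-Mes descend from C1 and C2-Mes from C2, and no unedited C1 mesenchymal group was analysed here, so an effect of the guide and a difference between the C1 and C2 backgrounds cannot be told apart. The labels do not say whether the 2 libraries of a group came from separate cultures, whether the lines are single clones, or which of the RNAs came from sorted cells. The p-values therefore measure only the spread between these libraries, which may be technical.

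KMT2D (MLL4) is a histone H3 lysine 4 methyltransferase of the COMPASS family that marks enhancers, and EED is a core subunit of Polycomb repressive complex PRC2, which deposits the repressive mark on histone H3 lysine 27. In an epithelial-mesenchymal transition (EMT), epithelial cells lose junctions and keratin networks, gain matrix and contractile genes, and are driven by transcription factors such as ZEB1, SNAI2, TWIST1 and PRRX1. Mesenchymal cells can differ from one another in which matrix, signalling and metabolic programs they run, and the differences between 2 such populations are described here.

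The deposited gene counts summed to 25569099 and 23717832 in C1-sgKMT2D-Mes, and to 18872124 and 31950649 in C2-Mes. The pairs were not equally close: the SD of the log2 difference between replicates was 0.204 in C1-sgKMT2D-Mes and 0.655 in C2-Mes, and 0.0328% and 11% of 18285 genes differed more than 2-fold between the libraries of each group. Mitochondrial genes held 7.73% and 7.69% of counts in C1-sgKMT2D-Mes, against 12.5% and 8.15% in C2-Mes, the higher one in replicate 1. The fit therefore used only the 4 compared libraries, and where 1 library decides a value, that value is given without it. Levels are CPM, the counts of a gene relative to the TMM-scaled size of its library over all 16 libraries. Differences are log2 of C1-sgKMT2D-Mes over C2-Mes. A gene was called at an adjusted p under 0.05 (edgeR's quasi-likelihood test, with Benjamini-Hochberg correction for the genes tested). The value after ± is an approximate standard error, the size of the difference divided by the square root of that test's F statistic. Where a group had no count in either library, the fold is a lower bound with a floor of 3 counts per library. In bulk RNA, fewer cells of a kind and less RNA per cell cannot be told apart.

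KMT2D itself (chromosome 12, 49018975 to 49059774, GRCh38) had 86.6 and 76.8 CPM in C1-sgKMT2D-Mes, against 123 and 83.9 CPM in C2-Mes. The guide libraries lay among and below the unedited ones, with overlap at the lower end of C2-Mes, and the difference was not called (log2 difference -0.36 ± 0.25, adjusted p = 0.4). Without C2-Mes replicate 2 it was called, at a log2 difference of -0.62 and an adjusted p of 2.6e-13, which assumes that the lone C2-Mes library varies like the guide pair. With C2-Mes replicate 1 left out instead, the log2 difference was -0.04 (adjusted p = 0.68). A guide that leaves a small insertion or deletion need not lower the transcript count, so the level does not check the editing. None of the 19 measured COMPASS genes was called, against up to 4 higher and 7 lower with a C2-Mes library left out. KMT2C, the closest paralog of KMT2D, had 92.4 and 87.2 CPM in C1-sgKMT2D-Mes, against 134 and 75 CPM in C2-Mes, and the H3 lysine 27 demethylase KDM6A, a partner of KMT2D, had 28.9 and 29.9 CPM in C1-sgKMT2D-Mes, against 31.9 and 30.9 CPM in C2-Mes; neither was called (adjusted p = 0.67 and 0.7).

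Both groups carried the labelled mesenchymal state. Vimentin (VIM) had 3969 and 3755 CPM in C1-sgKMT2D-Mes, against 4763 and 5862 CPM in C2-Mes, and ZEB1, a repressor of epithelial genes, had 301 and 333 CPM in C1-sgKMT2D-Mes, against 176 and 92.1 CPM in C2-Mes. E-cadherin (CDH1) was at 1.42 and 0.875 CPM in C1-sgKMT2D-Mes, against 0.935 and 0.607 CPM in C2-Mes, and at 224 and 216 CPM in C1-sgKMT2D-Epi and 211 and 221 CPM in C2-Epi. The summed level of 45 epithelial genes was 649.9 and 622 CPM in C1-sgKMT2D-Mes and 1122 and 1165 CPM in C2-Mes, well under the 5159.8 and 5008 CPM of C1-sgKMT2D-Epi and 5689.6 and 5744 CPM of C2-Epi. CDH1, VIM and ZEB1 did not pass the test between the mesenchymal groups (adjusted p = 0.46, 0.16 and 0.095), nor did ZEB2, SNAI2, CDH2, EPCAM or KRT8 (0.81, 0.15, 0.11, 0.91 and 0.95). For SNAI2, which encodes Slug, the levels were 151 and 161 CPM in C1-sgKMT2D-Mes, against 94.1 and 41 CPM in C2-Mes. SNAI1 (Snail) was below the filter on low counts, at 0.0837 and 0 CPM in C1-sgKMT2D-Mes, against 0.409 and 0.511 CPM in C2-Mes.

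Of 15851 genes tested, 1071 (6.76%) were higher and 1041 (6.57%) lower in C1-sgKMT2D-Mes than in C2-Mes, 13.3% in all, and 4872 had an unadjusted p under 0.05. These counts moved with the libraries used: with a C2-Mes library left out, 4889 to 5542 genes were called higher and 4954 to 5487 lower, and with a C1-sgKMT2D-Mes library left out 670 to 703 and 561 to 574. Non-overlap alone is common here, since the groups did not overlap for 63.4% of genes tested. Read against these background shares, and among those of the 38 gene lists with at least 10 tested genes, the share of higher genes was highest for the interferon response (35 of 54) and the share of lower genes for RAS-MAPK feedback, axon guidance and integrin genes (14 of 38, 13 of 37 and 6 of 19), while matrix lists held calls in both directions. In each of the 38 lists and in both directions, leaving out a C1-sgKMT2D-Mes library gave no more calls than leaving out a C2-Mes library, so that in each range of counts given below the lower end comes without a C1-sgKMT2D-Mes library and the upper end without a C2-Mes library.

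**Figure D1:**
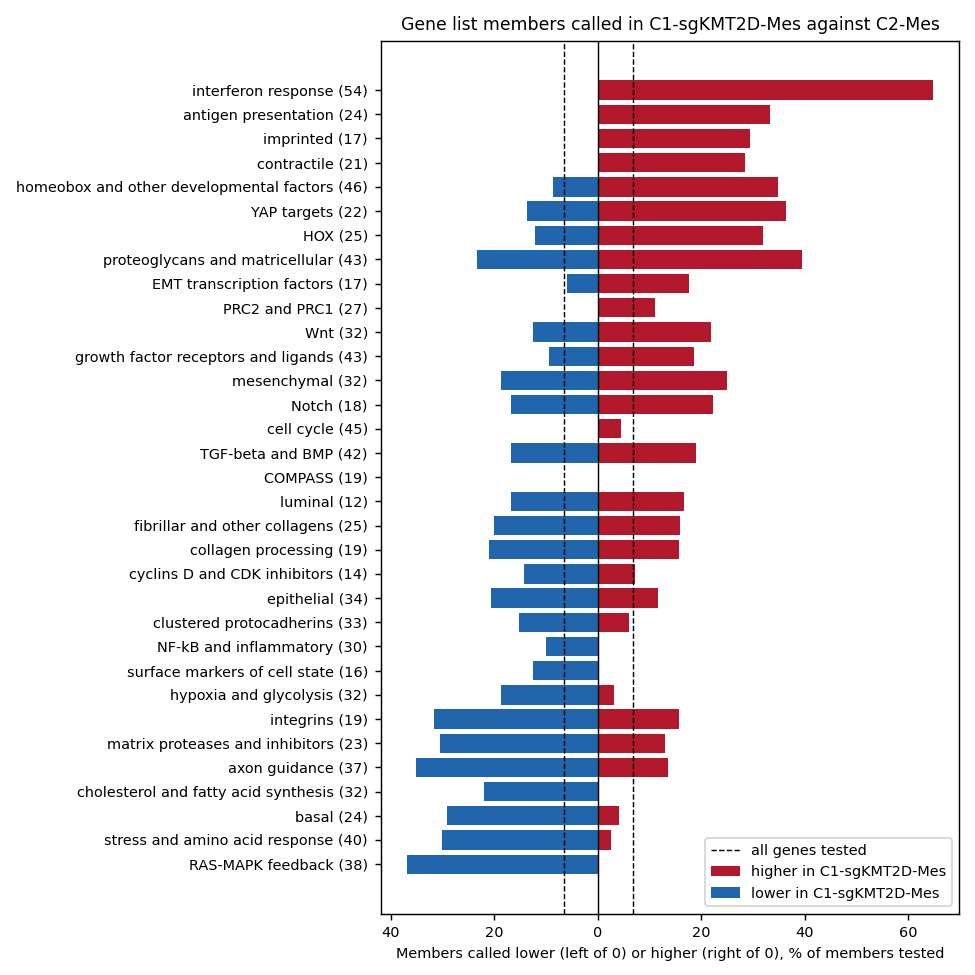
Share of the tested members of each gene list that were called higher (right of 0) or lower (left of 0) in C1-sgKMT2D-Mes than in C2-Mes, in percent of members tested, with the number tested in parentheses and lists of at least 10 tested genes shown. Dashed lines give the same share over all genes tested, 6.76% higher and 6.57% lower; 35 of 54 interferon response genes lie on the higher side and 14 of 38 RAS-MAPK feedback genes on the lower side.

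Interferon-stimulated genes had the highest share of members called in one direction among lists of at least 10 tested genes. Of 54 measured members, 35 were higher, 0 were lower and 19 were not called in C1-sgKMT2D-Mes, with a median log2 difference of 1.41 against -0.01 over all genes tested. The 58 listed genes summed to 3223 and 3263 CPM in C1-sgKMT2D-Mes, against 1885 and 1519.7 CPM in C2-Mes. The higher count was 20 without C1-sgKMT2D-Mes replicate 1 and 50 without C2-Mes replicate 1, and 4 members were called lower without either C2-Mes library. These genes encode antiviral effectors, RNA sensors and the transcription factors that induce them.

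Among the effectors, IFI6, an interferon-induced membrane protein, had 85.6 and 70.9 CPM in C1-sgKMT2D-Mes, against 4.03 and 7.06 CPM in C2-Mes (log2 difference 3.79 ± 0.34, adjusted p = 0.0087). IFIT1, which binds foreign RNA caps, had 40.5 and 43.6 CPM in C1-sgKMT2D-Mes, against 4.09 and 4.12 CPM in C2-Mes (log2 difference 3.34 ± 0.20, adjusted p = 0.0063). ISG15, the ubiquitin-like interferon modifier, had 21 and 20.8 CPM in C1-sgKMT2D-Mes, against 2.1 and 3.23 CPM in C2-Mes (log2 difference 2.94 ± 0.28, adjusted p = 0.0096). In all 3 the guide pair lay several-fold above the unedited pair. XAF1, an interferon-induced binding partner of the apoptosis inhibitor XIAP, had 17.6 and 21.1 CPM in C1-sgKMT2D-Mes, against 0.701 and 0.0959 CPM in C2-Mes (log2 difference 5.80 ± 0.76, adjusted p = 0.017), and IFI44L had 228 and 246 CPM in C1-sgKMT2D-Mes, against 66.6 and 46.3 CPM in C2-Mes (log2 difference 2.05 ± 0.25, adjusted p = 0.015). MX2, a dynamin-like antiviral GTPase, had 8.37 and 7.66 CPM in C1-sgKMT2D-Mes and no count in C2-Mes, which makes it at least 59.1-fold higher. RSAD2 (viperin) had 0.92 and 1.62 CPM in C1-sgKMT2D-Mes, against 0.0584 and 0 CPM in C2-Mes, a ratio of 61.1 (95% counting interval 10.6 to 2454) that rests on 1 count in C2-Mes. RSAD2 was not called by voom fitted on all 16 libraries (adjusted p = 0.074). XAF1, IFI44L, MX2 and RSAD2 were higher in both guide libraries than in either unedited one. Among the factors that induce these genes, IRF7 had 13.2 and 12.9 CPM in C1-sgKMT2D-Mes, against 2.04 and 2.78 CPM in C2-Mes (log2 difference 2.41 ± 0.26, adjusted p = 0.011). Without C2-Mes replicate 1 the log2 difference was 7.58 for XAF1, and without C2-Mes replicate 2 it was 4.75 for XAF1. IFIT1, ISG15 and IRF7 were chosen after their values were seen.

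The interferon genes themselves were at the limit of detection. The 19 type I and type III interferon genes together had 1 and 0 counts in C1-sgKMT2D-Mes, against 0 and 2 counts in C2-Mes; these were IFNB1 counts in each case, a gene chosen after its values were seen. CXCL13, a B-cell attracting chemokine, had 90.9 and 116 CPM in C1-sgKMT2D-Mes, against 0.117 and 0 CPM in C2-Mes, a ratio of 2497 (95% counting interval 691 to 20622) over 2 counts in C2-Mes. Leukocyte markers, from another cell type that expresses interferon-stimulated genes, summed over 7 genes to 0.837 and 0.832 CPM in C1-sgKMT2D-Mes and 0.876 and 0.415 CPM in C2-Mes, with CD3E and LYZ at 0 in the C1-sgKMT2D-Mes libraries.

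The interferon difference was not shared by the list as a whole in epithelial cells. In C1-sgKMT2D-Epi against C2-Epi, where 27.9% of genes tested were higher and 28.9% lower (56.8% in all), 12 of 50 measured members were higher and 19 lower, and the summed level was 977 and 944 CPM in C1-sgKMT2D-Epi and 1004 and 1014 CPM in C2-Epi. The test of the difference between the mesenchymal and the epithelial comparison called 31 members as more positive in mesenchymal cells and 0 as more negative, where 10.7% and 10.0% of 17198 genes tested were called (20.7% in all). IFIT1, higher in the mesenchymal comparison, was lower in the epithelial one, at 1.03 and 0.996 CPM in C1-sgKMT2D-Epi, against 2.02 and 1.96 CPM in C2-Epi (log2 difference -0.98, adjusted p = 0.0071). IFI44L was higher in both, at 2.98 and 2.39 CPM in C1-sgKMT2D-Epi, against 0.903 and 0.577 CPM in C2-Epi (log2 difference 1.84, adjusted p = 0.0005). C1-sgEED-Mes, mesenchymal cells with the other guide, had a summed level of 1629 and 1526 CPM, within the range of C2-Mes and under that of C1-sgKMT2D-Mes.

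**Figure D2:**
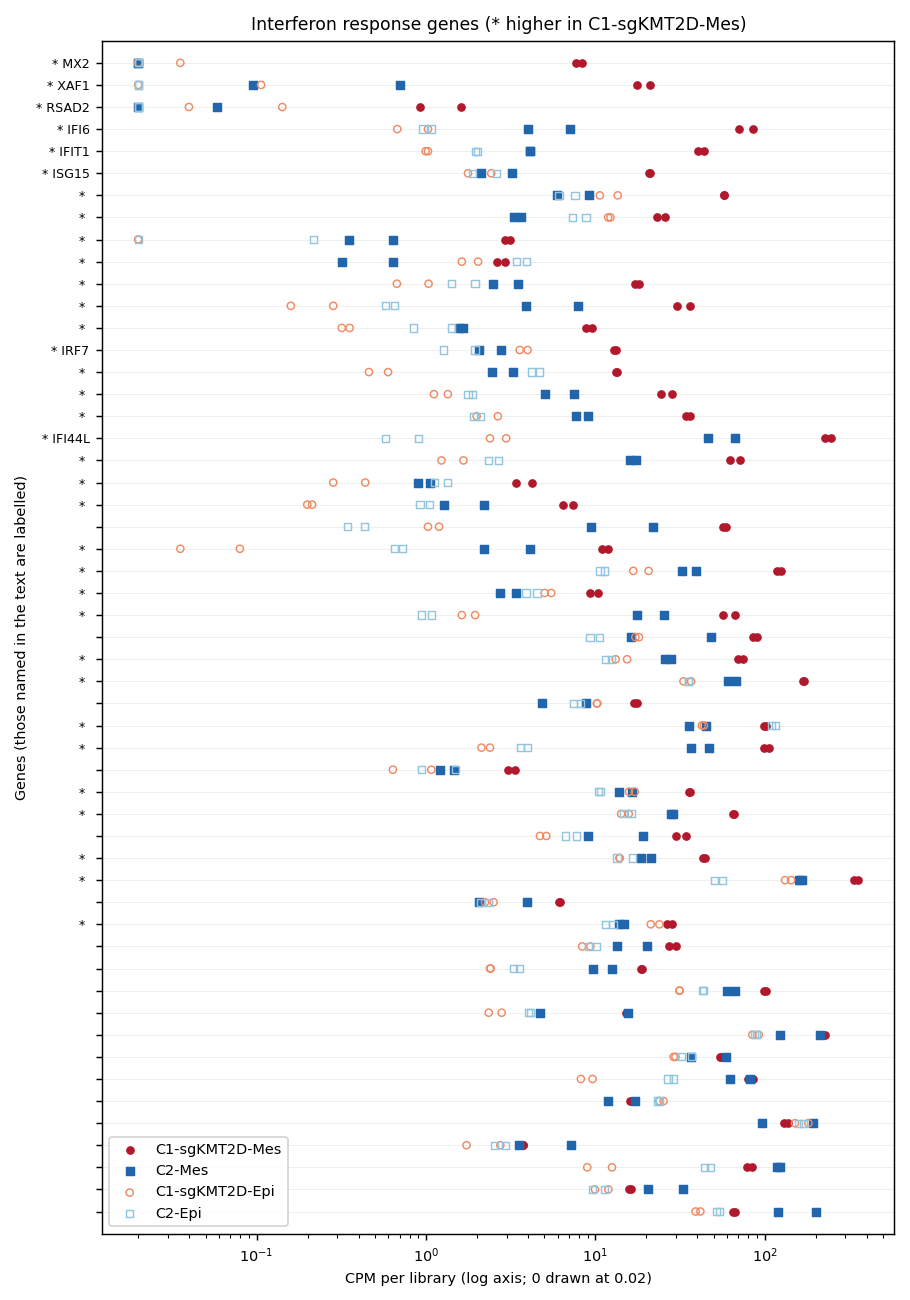
CPM per library on a log axis for 53 interferon response genes, ordered by the log2 difference in mesenchymal cells, with filled circles for C1-sgKMT2D-Mes, filled squares for C2-Mes, open circles for C1-sgKMT2D-Epi and open squares for C2-Epi; values of 0 are drawn at 0.02 and asterisks mark the 34 called ones among them, and genes named in the text are labelled. The C1-sgKMT2D-Mes points of the called genes lie right of the C2-Mes points, and the epithelial pairs do not show that order for most of them.

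Promoters of interferon-stimulated genes carry the interferon-stimulated response element, bound by interferon-activated transcription factors. The motif searched, GAAANNGAAA on either strand with overlapping matches counted, occurred in the 250 bases before the RefSeq start site of 16 of the 27 called interferon list genes that had a promoter in the table (59.3%), and of 8 of the 16 that were not called (50%). It occurred in 5.41% of promoters of all higher genes, 1.95% of those of lower genes, 2.51% of the 11139 tested genes with a promoter and 3.07% of all 27305 promoters. The sequences of IFI6, IFI44L, IFIT1 and ISG15 are shown because they hold the motif and their values are given here (RefSeq, GRCh38.p14, written in the gene's direction and ending at the base before the start site). Capitals mark the motif, or its reverse complement TTTCNNTTTC. A match is a run of letters and not evidence of binding.
IFI6, chr1:27672193-27672442, minus strand: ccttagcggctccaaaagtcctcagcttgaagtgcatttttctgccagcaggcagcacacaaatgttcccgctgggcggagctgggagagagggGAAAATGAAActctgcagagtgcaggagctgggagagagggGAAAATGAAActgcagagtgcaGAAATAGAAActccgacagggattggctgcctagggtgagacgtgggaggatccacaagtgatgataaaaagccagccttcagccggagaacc
IFI44L, chr1:78620198-78620447, plus strand: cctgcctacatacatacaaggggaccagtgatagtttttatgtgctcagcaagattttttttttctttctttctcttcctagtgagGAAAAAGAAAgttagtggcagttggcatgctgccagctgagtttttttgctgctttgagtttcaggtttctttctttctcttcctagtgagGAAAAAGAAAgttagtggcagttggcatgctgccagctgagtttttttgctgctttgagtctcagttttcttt
IFIT1, chr10:89392373-89392622, plus strand: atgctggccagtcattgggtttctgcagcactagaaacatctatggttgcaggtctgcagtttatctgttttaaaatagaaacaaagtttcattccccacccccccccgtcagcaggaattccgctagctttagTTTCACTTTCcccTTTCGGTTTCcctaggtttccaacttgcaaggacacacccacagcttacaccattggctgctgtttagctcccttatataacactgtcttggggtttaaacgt
ISG15, chr1:1013247-1013496, plus strand: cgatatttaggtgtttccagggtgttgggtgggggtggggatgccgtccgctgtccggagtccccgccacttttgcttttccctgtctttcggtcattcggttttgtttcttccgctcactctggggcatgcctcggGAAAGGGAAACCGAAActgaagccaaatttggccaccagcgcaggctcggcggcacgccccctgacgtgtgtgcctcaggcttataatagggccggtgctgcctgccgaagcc

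IFI6, with the largest difference of the 4 genes shown, holds 3 matches and the other 3 genes 2 each, those of ISG15 overlapping. The IFI44L window holds no CpG pair and the ISG15 window 17. Called interferon genes had a median of 5 CpG pairs per window, against 12.5 for interferon list genes that were not called. The median was 17 for all higher genes, 21 for lower genes and 21 for all tested genes with a promoter.

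Antigen presentation genes were called on the same side: 8 of 24 measured members were higher and 0 lower. The higher count was 5 without C1-sgKMT2D-Mes replicate 1 and 16 without C2-Mes replicate 2, and 4 members were called lower without either C2-Mes library. HLA-B, a classical class I chain, had 160.0 and 159.8 CPM in C1-sgKMT2D-Mes, against 56.1 and 34.7 CPM in C2-Mes (log2 difference 1.80 ± 0.29, adjusted p = 0.027). HLA-F, a nonclassical class I chain, had 9.91 and 10.6 CPM in C1-sgKMT2D-Mes, against 0.701 and 1.09 CPM in C2-Mes (log2 difference 3.46 ± 0.31, adjusted p = 0.0087). The class II chain HLA-DPB1 had 7.61 and 8.71 CPM in C1-sgKMT2D-Mes and no count in C2-Mes (at least 60.2-fold higher). CD274, which encodes the checkpoint ligand PD-L1, had 21.9 and 20.8 CPM in C1-sgKMT2D-Mes, against 2.45 and 2.33 CPM in C2-Mes (log2 difference 3.14 ± 0.21, adjusted p = 0.0063). For all 4 genes both guide libraries were above both unedited ones. In epithelial cells HLA-B was lower in C1-sgKMT2D-Epi (log2 difference -1.03, adjusted p = 8.5e-05) and CD274 higher (log2 difference 2.49, adjusted p = 4e-07). HLA class I reads may be shared between near-identical genes, and how multiply mapped reads were counted is not given in the sources used here, so single HLA levels are uncertain.

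Matrix genes split into opposite sets. Of 43 measured proteoglycan, glycoprotein and matricellular genes, 17 were higher and 10 lower; of 25 collagens, 4 were higher and 5 lower. With 1 library left out, these counts ranged over 14 to 26 higher and 7 to 16 lower for the first list, and over 4 to 15 higher and 7 to 9 lower for collagens. Fibronectin (FN1, chromosome 2, 215360440 to 215436172) had 141637 and 130673 CPM in C1-sgKMT2D-Mes, against 37561 and 34811 CPM in C2-Mes (log2 difference 1.89 ± 0.18, adjusted p = 0.0087). It alone took 13.2% and 12.6% of all counts in C1-sgKMT2D-Mes, against 3.41% in each C2-Mes library. Fibronectin thus held a severalfold larger part of the RNA counted in the guide libraries. THBS1, which encodes the TGF-beta activating glycoprotein thrombospondin 1, had 3299 and 2918 CPM in C1-sgKMT2D-Mes, against 112 and 208 CPM in C2-Mes (log2 difference 4.27 ± 0.38, adjusted p = 0.0086). COL3A1, the chain of fibrillar type III collagen, had 10358 and 10473 CPM in C1-sgKMT2D-Mes, against 2696 and 4253 CPM in C2-Mes (log2 difference 1.57 ± 0.27, adjusted p = 0.03). EFEMP1, which encodes fibulin 3, had 381 and 345 CPM in C1-sgKMT2D-Mes, against 3.86 and 2.04 CPM in C2-Mes (log2 difference 6.95 ± 0.41, adjusted p = 0.0063). The guide libraries were above the unedited ones in each case, by the widest margin for EFEMP1. COL12A1, a fibril-associated collagen, had 483 and 435 CPM in C1-sgKMT2D-Mes, against 14.5 and 37.1 CPM in C2-Mes (log2 difference 4.13 ± 0.52, adjusted p = 0.016), and MGP, an inhibitor of calcification, had 238 and 247 CPM in C1-sgKMT2D-Mes, against 0 and 1.12 CPM in C2-Mes (log2 difference 8.50 ± 1.02, adjusted p = 0.015); MGP lost its call with no filter on low counts (adjusted p = 0.07). MGP had no count in C2-Mes replicate 1, so its fitted difference without replicate 2 depends on the prior count and is no bound. The small proteoglycan DCN, decorin, had 773 and 758 CPM in C1-sgKMT2D-Mes, against 258 and 152 CPM in C2-Mes (log2 difference 1.89 ± 0.30, adjusted p = 0.027). Without C2-Mes replicate 1 the log2 difference was 7.75 for MGP, and without C2-Mes replicate 2 it was 4.96 for COL12A1 and 15.33 for MGP.

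The other matrix set was high in C2-Mes. Tenascin C (TNC) had 15.2 and 15.1 CPM in C1-sgKMT2D-Mes, against 266 and 332 CPM in C2-Mes (log2 difference -4.32 ± 0.21, adjusted p = 0.0058). Lumican (LUM), a small proteoglycan of the same family as decorin, had 17.4 and 16.2 CPM in C1-sgKMT2D-Mes, against 123 and 220.4 CPM in C2-Mes (log2 difference -3.37 ± 0.35, adjusted p = 0.011). COL14A1, a fibril-associated collagen, had 0.335 and 0.438 CPM in C1-sgKMT2D-Mes, against 168 and 58 CPM in C2-Mes (log2 difference -8.20 ± 0.78, adjusted p = 0.0096), and the microfibril protein MFAP4 had 0.0837 and 0 CPM in C1-sgKMT2D-Mes, against 37.6 and 41.8 CPM in C2-Mes. MFAP4 rests on 2 counts in C1-sgKMT2D-Mes, for a ratio of 942 (95% counting interval 260.4 to 7784) of C2-Mes over C1-sgKMT2D-Mes. In these genes the guide pair was below the unedited pair by more than the C2-Mes libraries differed from each other. LOXL1, a collagen and elastin crosslinking oxidase, had 6.36 and 6 CPM in C1-sgKMT2D-Mes, against 44.5 and 130.2 CPM in C2-Mes (log2 difference -3.84 ± 0.59, adjusted p = 0.025). COL1A1, a chain of type I collagen, had 102 and 93.3 CPM in C1-sgKMT2D-Mes, against 484 and 2964 CPM in C2-Mes. Its C2-Mes libraries differed several-fold, and the difference was not called (log2 difference -4.15 ± 0.93, adjusted p = 0.055). It was -4.93 and -2.33 without C2-Mes replicate 1 or 2, and it was called with any 1 of the 4 libraries left out. Of 23 matrix proteases and inhibitors 7 were lower and 3 higher (6 to 14 and 2 to 10 with 1 library left out). Without C2-Mes replicate 1 the log2 difference was -7.22 for COL14A1, and without C2-Mes replicate 2 it was -2.87 for LOXL1. DCN, LUM and TNC were chosen after their values were seen.

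**Figure D3:**
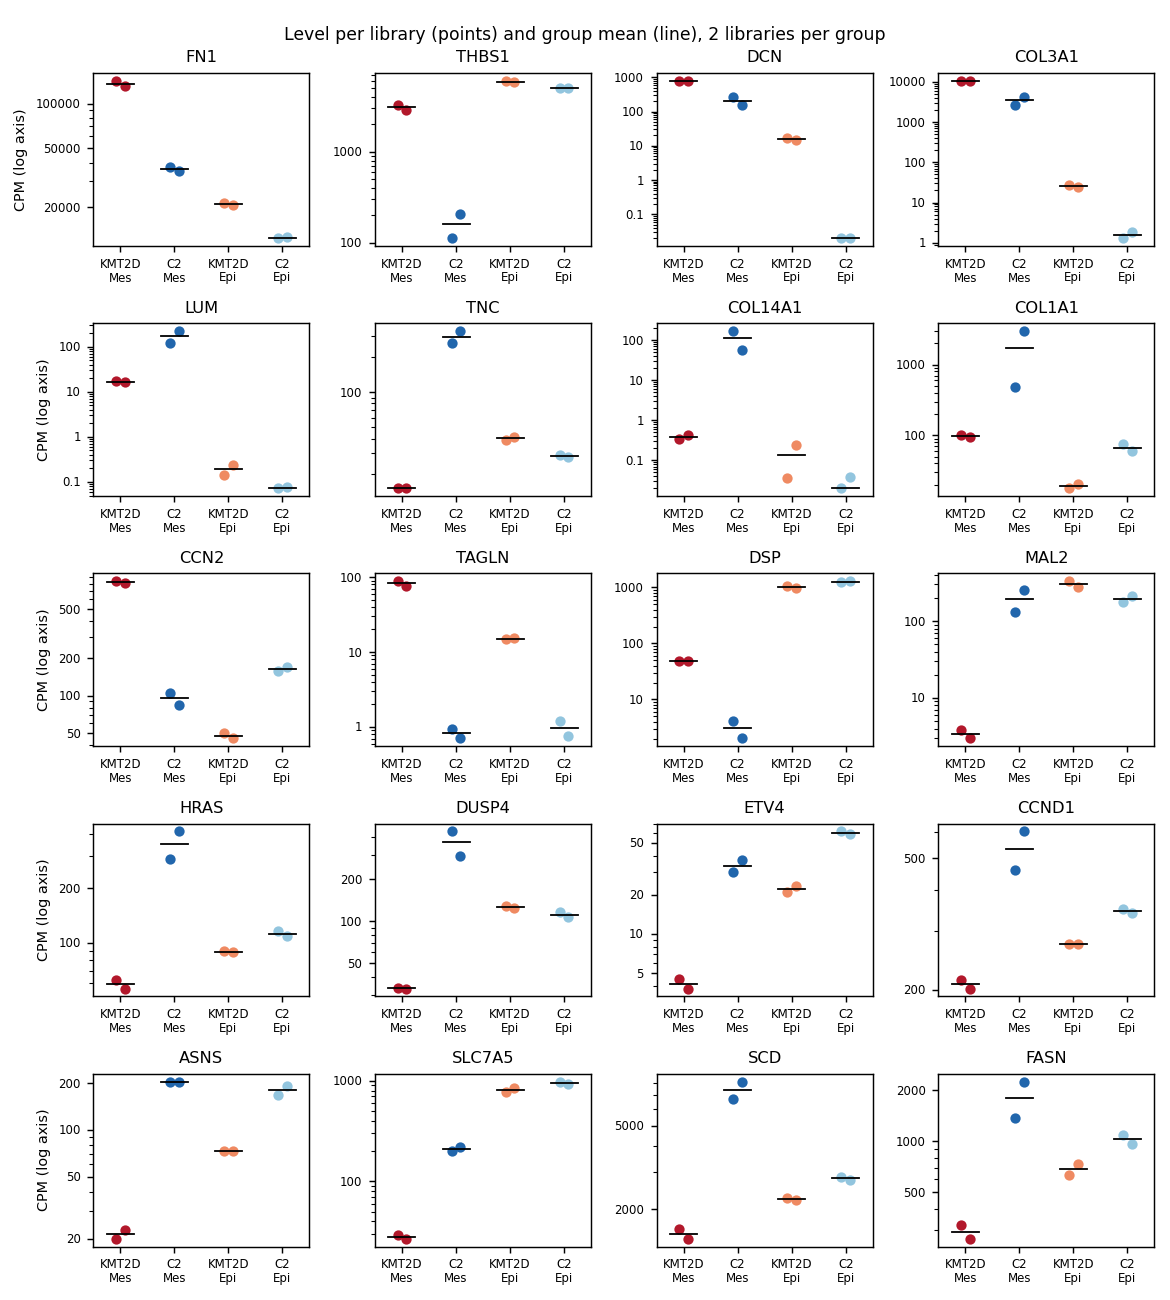
CPM per library on log axes for 20 genes, with points for the 2 libraries of C1-sgKMT2D-Mes (KMT2D Mes), C2-Mes (C2 Mes), C1-sgKMT2D-Epi (KMT2D Epi) and C2-Epi (C2 Epi) and a line at the group mean; values of 0 are drawn at 0.02. FN1, THBS1, DCN, COL3A1, CCN2, TAGLN and DSP are higher in C1-sgKMT2D-Mes than in C2-Mes, and LUM, TNC, COL14A1, MAL2 and the genes of the lowest 2 rows are lower.

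Contractile and YAP target genes had more higher than lower calls. Of 21 contractile genes 6 were higher and 0 lower, and of 22 YAP and TAZ targets, genes induced by mechanical tension, 8 were higher and 3 lower. CCN2 (CTGF), a matricellular YAP target, had 838 and 809.6 CPM in C1-sgKMT2D-Mes, against 106 and 84.4 CPM in C2-Mes (log2 difference 3.10 ± 0.20, adjusted p = 0.0063). ANKRD1, another YAP target, had 69.8 and 64.8 CPM in C1-sgKMT2D-Mes, against 0.234 and 0.16 CPM in C2-Mes (log2 difference 8.43 ± 0.29, adjusted p = 0.0046). TAGLN, an actin-binding smooth muscle protein, had 87.9 and 76.8 CPM in C1-sgKMT2D-Mes, against 0.935 and 0.703 CPM in C2-Mes (log2 difference 6.66 ± 0.27, adjusted p = 0.0046), and tropomyosin TPM1 had 359 and 359 CPM in C1-sgKMT2D-Mes, against 27.9 and 37.4 CPM in C2-Mes (log2 difference 3.44 ± 0.22, adjusted p = 0.0063). For these 4 genes the libraries of each pair were close. The pairs did not overlap, which held for 63.4% of all genes tested. The epithelial groups differed: CCN2 was lower with the guide, at 50.3 and 45.3 CPM in C1-sgKMT2D-Epi, against 159 and 171 CPM in C2-Epi (log2 difference -1.79, adjusted p = 5.4e-07), while TAGLN was higher there too (log2 difference 3.92, adjusted p = 5.4e-07). The difference between the comparisons was called for both (CCN2 log2 4.91, adjusted p = 7.8e-05; TAGLN log2 2.76, adjusted p = 0.0022). The higher counts were 5 without C1-sgKMT2D-Mes replicate 1 and 13 without C2-Mes replicate 2 for YAP targets, and 6 without C1-sgKMT2D-Mes replicate 1 and 16 without C2-Mes replicate 1 for contractile genes, of which up to 4 were called lower with a C2-Mes library left out. YAP targets called lower ranged over 1 to 6.

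RAS-MAPK genes were called on the lower side with all 4 libraries. The list holds negative feedback regulators and ETS factors that are induced by ERK signalling; 14 of 38 measured members were lower and 0 higher, and the lower count was 7 without C1-sgKMT2D-Mes replicate 2 and 25 without C2-Mes replicate 2. With 1 library left out, 1 to 12 members were called higher, the most without C2-Mes replicate 1. HRAS (chromosome 11, 532242 to 537287) had 61.9 and 55.7 CPM in C1-sgKMT2D-Mes, against 288 and 411 CPM in C2-Mes (log2 difference -2.59 ± 0.24, adjusted p = 0.0093); reads of the endogenous gene and of the transforming HRAS cannot be told apart in these counts. DUSP4, a phosphatase that inactivates MAP kinases, had 33.5 and 33.1 CPM in C1-sgKMT2D-Mes, against 439 and 294 CPM in C2-Mes (log2 difference -3.48 ± 0.27, adjusted p = 0.0074). ETV4, an ETS factor, had 4.48 and 3.81 CPM in C1-sgKMT2D-Mes, against 29.9 and 37.3 CPM in C2-Mes (log2 difference -3.03 ± 0.24, adjusted p = 0.0073). SPRY4, a Sprouty inhibitor of receptor signalling, had 26.8 and 26.5 CPM in C1-sgKMT2D-Mes, against 141 and 145 CPM in C2-Mes (log2 difference -2.44 ± 0.17, adjusted p = 0.0063). In all 4 genes both guide libraries were well under both unedited ones. DUSP6, the ERK-selective phosphatase, had 182 and 160.5 CPM in C1-sgKMT2D-Mes, against 316 and 304 CPM in C2-Mes (log2 difference -0.87 ± 0.17, adjusted p = 0.037); its adjusted p was 0.43 and 0.61 without C1-sgKMT2D-Mes replicate 1 or 2. CCND1 (cyclin D1, chromosome 11, 69641087 to 69654474), a cell-cycle target of the pathway, had 214 and 202 CPM in C1-sgKMT2D-Mes, against 462 and 602 CPM in C2-Mes (log2 difference -1.37 ± 0.20, adjusted p = 0.021) and lost its call without either C1-sgKMT2D-Mes library (adjusted p = 0.094 and 0.13). In the epithelial comparison 24 of 38 measured members were lower and 7 higher, where 28.9% of all genes tested were lower and 27.9% higher. HRAS was slightly lower there (log2 difference -0.34, adjusted p = 0.0043), and the difference between the comparisons was called (log2 -2.23, adjusted p = 0.0017). SPRY4 and DUSP6 were chosen after their values were seen.

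Metabolic and stress lists had more lower than higher calls. Of 40 amino acid and stress response genes 12 were lower and 1 higher, and the lower count was 8 without C1-sgKMT2D-Mes replicate 1 and 27 without C2-Mes replicate 1. Members called higher numbered 1 to 10 with 1 library left out. Asparagine synthetase (ASNS), a target of the stress factor ATF4, had 19.9 and 22.5 CPM in C1-sgKMT2D-Mes, against 205 and 204 CPM in C2-Mes (log2 difference -3.28 ± 0.18, adjusted p = 0.0062). TRIB3, a pseudokinase induced by the same factor, had 13.7 and 11.4 CPM in C1-sgKMT2D-Mes, against 141 and 126 CPM in C2-Mes (log2 difference -3.43 ± 0.21, adjusted p = 0.0063). CHAC1, which degrades glutathione, had 1.55 and 2.1 CPM in C1-sgKMT2D-Mes, against 49.8 and 58.1 CPM in C2-Mes (log2 difference -4.90 ± 0.27, adjusted p = 0.0062), and SLC7A5, the large neutral amino acid transporter, had 29.2 and 26.9 CPM in C1-sgKMT2D-Mes, against 199.8 and 222 CPM in C2-Mes (log2 difference -2.93 ± 0.18, adjusted p = 0.0063). The guide pair lay far under the unedited pair in all 4 genes, furthest in CHAC1. TRIB3 did not differ detectably in epithelial cells (log2 difference 0.03, adjusted p = 0.82), and the difference between the comparisons was called (log2 -3.43, adjusted p = 0.0002). GLUL, glutamine synthetase, one of the highest expressed called genes, had 720.4 and 719.5 CPM in C1-sgKMT2D-Mes, against 4252 and 2259 CPM in C2-Mes (log2 difference -2.20 ± 0.35, adjusted p = 0.027).

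Of 32 cholesterol and fatty acid synthesis genes 7 were lower and 0 higher, the lower count was 5 without C1-sgKMT2D-Mes replicate 2 and 29 without C2-Mes replicate 1, and up to 5 were higher with a C2-Mes library left out. Stearoyl-CoA desaturase (SCD) had 1604 and 1448 CPM in C1-sgKMT2D-Mes, against 6705 and 8098 CPM in C2-Mes (log2 difference -2.29 ± 0.19, adjusted p = 0.0078), and fatty acid synthase (FASN) had 321 and 267 CPM in C1-sgKMT2D-Mes, against 1375 and 2253 CPM in C2-Mes (log2 difference -2.64 ± 0.30, adjusted p = 0.014). Both were above the C2-Epi level in C2-Mes and below the C1-sgKMT2D-Epi level in C1-sgKMT2D-Mes. Of 32 hypoxia and glycolysis genes 6 were lower and 1 higher (4 to 23 and 1 to 8 with 1 library left out). CA9, a carbonic anhydrase induced in hypoxia, had 1.3 and 1.23 CPM in C1-sgKMT2D-Mes, against 83.9 and 29.4 CPM in C2-Mes (log2 difference -5.50 ± 0.66, adjusted p = 0.015), and VEGFA, the endothelial growth factor, had 24.4 and 22.6 CPM in C1-sgKMT2D-Mes, against 234 and 123 CPM in C2-Mes (log2 difference -2.94 ± 0.37, adjusted p = 0.017). EGLN3, an oxygen-sensing prolyl hydroxylase that is itself a hypoxia target, went the other way, at 106 and 101 CPM in C1-sgKMT2D-Mes, against 0.351 and 0.192 CPM in C2-Mes (log2 difference 8.63 ± 0.33, adjusted p = 0.0046). Without C2-Mes replicate 1 the log2 difference was -4.54 for CA9. Of 30 NF-kB and inflammatory genes 3 were lower and 0 higher, with a median log2 difference of -1.81. The share called, 10%, was under the 13.3% of all genes tested. The lower count was 10 without C1-sgKMT2D-Mes replicate 2 and 28 without C2-Mes replicate 2. As many as 8 members were called higher without C2-Mes replicate 1. Their summed level, over 47 genes, was 418 and 406 CPM in C1-sgKMT2D-Mes and 3579 and 699 CPM in C2-Mes, the higher in C2-Mes replicate 1. CSF3, the granulocyte growth factor, had 0.209 and 0.0875 CPM in C1-sgKMT2D-Mes, against 115 and 50.2 CPM in C2-Mes (log2 difference -9.08 ± 0.73, adjusted p = 0.0078). Without C1-sgKMT2D-Mes replicate 1 the log2 difference was -9.80 for CSF3, and without C2-Mes replicate 1 it was -8.35 for CSF3.

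Regulators of the transition and residual epithelial genes differed in part. Of 17 measured EMT transcription factors 3 were higher and 1 lower (3 to 8 and 0 to 9 with 1 library left out). Over all genes tested 6.76% were higher and 6.57% lower, so 1 lower factor is near the background share. TWIST1 had 45.4 and 43.1 CPM in C1-sgKMT2D-Mes, against 10.1 and 8.08 CPM in C2-Mes (log2 difference 2.27 ± 0.21, adjusted p = 0.0087). SOX9 had 89.1 and 88.5 CPM in C1-sgKMT2D-Mes, against 27.1 and 29.8 CPM in C2-Mes (log2 difference 1.63 ± 0.17, adjusted p = 0.011). PRRX1, a homeobox factor of mesenchyme, was the lower one, at 56.4 and 54 CPM in C1-sgKMT2D-Mes, against 104 and 114 CPM in C2-Mes (log2 difference -1.0 ± 0.17, adjusted p = 0.028), and lost its call without either C1-sgKMT2D-Mes library (adjusted p = 0.4 and 0.45). These 3 genes did not overlap between the groups, which held for 63.4% of all genes tested. Among 32 mesenchymal markers 8 were higher and 6 lower (8 to 17 and 5 to 13 with 1 library left out). The cadherin CDH11 had 287 and 285 CPM in C1-sgKMT2D-Mes, against 9.12 and 4.95 CPM in C2-Mes (log2 difference 5.34 ± 0.38, adjusted p = 0.007), the secreted IGFBP7 had 433 and 423 CPM in C1-sgKMT2D-Mes, against 2.22 and 3.9 CPM in C2-Mes (log2 difference 7.08 ± 0.36, adjusted p = 0.006), and the membrane protease FAP had 86.1 and 85.7 CPM in C1-sgKMT2D-Mes, against 2.34 and 6.1 CPM in C2-Mes (log2 difference 4.30 ± 0.50, adjusted p = 0.014). Neural cell adhesion molecule (NCAM1) had 5.65 and 6.3 CPM in C1-sgKMT2D-Mes, against 0.117 and 0 CPM in C2-Mes, a ratio of 144 (95% counting interval 39.6 to 1199) over 2 counts in C2-Mes. The called markers described here are all from the higher side. Summed over the 33 listed genes, the level was lower with the guide. It was 13432 and 12687 CPM in C1-sgKMT2D-Mes, against 17638 and 19105 CPM in C2-Mes. N-cadherin (CDH2) was not called, at 80.2 and 80.1 CPM in C1-sgKMT2D-Mes, against 16.8 and 41.7 CPM in C2-Mes. Without C2-Mes replicate 2 the log2 difference was 5.18 for FAP. FAP was chosen after its values were seen.

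Of 34 measured epithelial genes 4 were higher and 7 lower (4 to 10 and 3 to 16 with 1 library left out). Desmoplakin (DSP), a desmosome plaque protein, had 49.6 and 48.6 CPM in C1-sgKMT2D-Mes, against 4.09 and 2.01 CPM in C2-Mes (log2 difference 4.02 ± 0.40, adjusted p = 0.01). MAL2, a protein of apical membrane traffic, went the other way, at 3.81 and 2.98 CPM in C1-sgKMT2D-Mes, against 131 and 253 CPM in C2-Mes (log2 difference -5.84 ± 0.45, adjusted p = 0.0073), and in C2-Mes it was as high as the 179 and 213 CPM of C2-Epi. Desmoplakin and MAL2 were called in the opposite direction in the epithelial comparison (DSP log2 difference -0.32, adjusted p = 0.0022; MAL2 log2 difference 0.62, adjusted p = 0.00079). Of 24 basal genes 7 were lower and 1 higher, and the lower count was 1 without C1-sgKMT2D-Mes replicate 1 and 17 without C2-Mes replicate 2. Basal genes called higher numbered 1 to 6 with 1 library left out. KRT14, a basal keratin, had 2.8 and 3.46 CPM in C1-sgKMT2D-Mes, against 6.95 and 11.1 CPM in C2-Mes (log2 difference -1.54 ± 0.33, adjusted p = 0.049), and lost its call without either C1-sgKMT2D-Mes library (adjusted p = 0.31 and 0.15) and with library totals (0.059). KRT17 was higher, at 137 and 128 CPM in C1-sgKMT2D-Mes, against 26.1 and 16.6 CPM in C2-Mes (log2 difference 2.62 ± 0.29, adjusted p = 0.013). Of 12 luminal genes 2 were higher and 2 lower (3 to 8 and 0 to 2 with 1 library left out); GATA3, a luminal transcription factor, had 68.8 and 59 CPM in C1-sgKMT2D-Mes, against 8.82 and 7.03 CPM in C2-Mes (log2 difference 3.0 ± 0.23, adjusted p = 0.0073), and keratin KRT7 had 298 and 253 CPM in C1-sgKMT2D-Mes, against 48.8 and 63.5 CPM in C2-Mes (log2 difference 2.28 ± 0.22, adjusted p = 0.0097). KRT18, another keratin of the luminal list, had 18.6 and 17.3 CPM in C1-sgKMT2D-Mes, against 44 and 49.3 CPM in C2-Mes. It was lower (log2 difference -1.39 ± 0.18, adjusted p = 0.016). The guide libraries were above the unedited ones for KRT17, GATA3 and KRT7 and under them for KRT14 and KRT18.

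Signalling genes were called in both directions. Of 42 TGF-beta and BMP genes 8 were higher and 7 lower (6 to 24 and 6 to 13 with 1 library left out). BMP4, a bone morphogenetic ligand, had 5.98 and 5.56 CPM in C1-sgKMT2D-Mes, against 0.0584 and 0.0319 CPM in C2-Mes, a ratio of 139.8 (95% counting interval 38.3 to 1160.2) over 2 counts in C2-Mes, and GDF6, a ligand of the same family, had 7.03 and 7.22 CPM in C1-sgKMT2D-Mes and no count in C2-Mes (at least 52.5-fold higher). The ligand BMP6 and the BMP antagonist CHRDL1 had no count in C1-sgKMT2D-Mes, against 0.993 and 1.15 CPM and 5.61 and 3.99 CPM in C2-Mes (at least 8.35-fold and at least 37.4-fold lower). Ligands of this family were thus detected in one group and undetected in the other in both directions. Of 32 Wnt genes 7 were higher and 4 lower (3 to 17 and 3 to 14 with 1 library left out). DKK1, a secreted Wnt inhibitor, had 97.7 and 87.3 CPM in C1-sgKMT2D-Mes, against 15 and 13 CPM in C2-Mes (log2 difference 2.71 ± 0.19, adjusted p = 0.0066), and the nuclear repressor TCF7L1 had 9.83 and 9.41 CPM in C1-sgKMT2D-Mes, against 0.409 and 0.16 CPM in C2-Mes (log2 difference 5.17 ± 0.46, adjusted p = 0.0087). Both were higher in the 2 guide libraries than in the 2 unedited ones. The receptor FZD8 was lower, at 3.77 and 2.98 CPM in C1-sgKMT2D-Mes, against 57.9 and 62.6 CPM in C2-Mes (log2 difference -4.17 ± 0.23, adjusted p = 0.0062). Of 18 Notch genes 4 were higher and 3 lower (3 to 10 and 1 to 6 with 1 library left out); the target HES1 had 157 and 157 CPM in C1-sgKMT2D-Mes, against 23.5 and 5.94 CPM in C2-Mes (log2 difference 3.41 ± 0.70, adjusted p = 0.046), and lost its call with no filter on low counts (adjusted p = 0.13). Without C2-Mes replicate 1 the log2 difference was 4.72 for HES1 and 5.87 for TCF7L1, and without C2-Mes replicate 2 it was 2.72 for HES1 and 4.52 for TCF7L1.

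Of 43 growth factors and receptors 8 were higher and 4 lower (6 to 25 and 3 to 13 with 1 library left out); the ligand PDGFD had 31.7 and 34 CPM in C1-sgKMT2D-Mes, against 0.0584 and 0.128 CPM in C2-Mes (log2 difference 8.24 ± 0.35, adjusted p = 0.0046). Of 19 integrins and related matrix receptors 3 were higher and 6 lower (2 to 5 and 3 to 11 with 1 library left out). ITGA11, a collagen-binding alpha chain, had 2.34 and 1.79 CPM in C1-sgKMT2D-Mes and no count in C2-Mes (at least 15.3-fold higher), whereas ITGA10, another collagen-binding chain, had 112 and 111 CPM in C1-sgKMT2D-Mes, against 809.6 and 869 CPM in C2-Mes (log2 difference -2.93 ± 0.16, adjusted p = 0.0062). The C1-sgKMT2D-Mes libraries thus lay on opposite sides of C2-Mes for these collagen receptors. Of 37 axon guidance genes 13 were lower and 5 higher (8 to 17 and 5 to 13 with 1 library left out); the guidance ligand SLIT3 was higher, at 63.1 and 60.2 CPM in C1-sgKMT2D-Mes, against 0.76 and 0.767 CPM in C2-Mes (log2 difference 6.31 ± 0.22, adjusted p = 0.0046). The semaphorin SEMA6A, a guidance ligand of the membrane, was lower, at 0.293 and 0.263 CPM in C1-sgKMT2D-Mes, against 5.73 and 2.4 CPM in C2-Mes (log2 difference -3.85 ± 0.62, adjusted p = 0.027). SEMA7A, a membrane-anchored semaphorin, was lower too, at 4.64 and 4.16 CPM in C1-sgKMT2D-Mes, against 22.9 and 93.7 CPM in C2-Mes (log2 difference -3.74 ± 0.75, adjusted p = 0.043), but lost its call with no filter on low counts (adjusted p = 0.13). Surface markers used to tell cell states apart were mostly not called (2 of 16 lower, and 1 to 8 higher and 0 to 5 lower with 1 library left out): CD44 had 809.5 and 795 CPM in C1-sgKMT2D-Mes, against 993 and 854 CPM in C2-Mes, CD24 had 1.21 and 1.09 CPM in C1-sgKMT2D-Mes, against 0.584 and 0.543 CPM in C2-Mes, and ITGB4 had 119 and 108 CPM in C1-sgKMT2D-Mes, against 167 and 138 CPM in C2-Mes. Without C2-Mes replicate 2 the log2 difference was 8.98 for PDGFD. The difference of SEMA6A was -3.09 and that of SEMA7A -4.41 without C2-Mes replicate 1, and they were -4.36 for SEMA6A and -2.39 for SEMA7A without C2-Mes replicate 2.

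Developmental genes were called in both directions. Over all genes tested 6.76% were higher and 6.57% lower. The share of clustered protocadherins called higher, given last, was near this background. Of 46 measured homeobox and other developmental factors 16 were higher and 4 lower, and of 25 HOX genes 8 were higher and 3 lower. With 1 library left out, these counts ranged over 12 to 29 higher and 4 to 16 lower for the first list and 6 to 14 higher and 0 to 6 lower for HOX genes. HOXB7 had 12.3 and 11.4 CPM in C1-sgKMT2D-Mes, against 0.76 and 0.0959 CPM in C2-Mes (log2 difference 4.97 ± 0.80, adjusted p = 0.027), and HOXB9 had 13.3 and 12.2 CPM in C1-sgKMT2D-Mes, against 0.643 and 0.0639 CPM in C2-Mes (log2 difference 5.38 ± 0.83, adjusted p = 0.024). NKX2-5, a cardiac homeobox factor, had 4.02 and 4.07 CPM in C1-sgKMT2D-Mes and no count in C2-Mes (at least 29.8-fold higher), and MSX2, a homeobox factor of limb and skull, had 1.84 and 2.5 CPM in C1-sgKMT2D-Mes and no count in C2-Mes (at least 16-fold higher). Of 17 imprinted genes 5 were higher and 0 lower (5 to 12 and 1 to 6 with 1 library left out). The noncoding MEG3 had 546 and 577 CPM in C1-sgKMT2D-Mes, against 44.9 and 15.5 CPM in C2-Mes (log2 difference 4.20 ± 0.59, adjusted p = 0.02). The noncoding H19 had 451 and 462 CPM in C1-sgKMT2D-Mes, against 22.5 and 2.72 CPM in C2-Mes (log2 difference 5.18 ± 1.09, adjusted p = 0.048), but lost its call with RLE scaling (adjusted p = 0.05) and with no filter on low counts (0.27). MEST, a maternally imprinted hydrolase gene, had 63.5 and 61.4 CPM in C1-sgKMT2D-Mes, against 6.95 and 15.2 CPM in C2-Mes (log2 difference 2.47 ± 0.41, adjusted p = 0.029). Both guide libraries were above both unedited ones in each of these genes, while the C2-Mes libraries differed from each other by up to several-fold. Without C2-Mes replicate 1 the log2 difference was 6.88 for HOXB7, 7.53 for HOXB9, 5.18 for MEG3 and 7.39 for H19, and without C2-Mes replicate 2 it was 3.93 for HOXB7, 4.28 for HOXB9, 4.32 for H19 and 3.14 for MEST. Of 33 clustered protocadherins 2 were higher and 5 lower (2 to 9 and 2 to 11 with 1 library left out).

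Of 27 Polycomb genes 3 were higher and 0 lower (1 to 17 and 0 to 9 with 1 library left out). The share called, 11.1%, was under the 13.3% of all genes tested. EED (chromosome 11, 86244544 to 86278813) had 22 and 23.9 CPM in C1-sgKMT2D-Mes, against 11.2 and 12.5 CPM in C2-Mes (log2 difference 0.94 ± 0.19, adjusted p = 0.043), and its adjusted p was 0.41 and 0.53 without C1-sgKMT2D-Mes replicate 1 or 2, 0.052 with library totals and 0.093 with the GC and length correction. RBBP7, a histone-binding subunit, had 925 and 936 CPM in C1-sgKMT2D-Mes, against 149 and 257 CPM in C2-Mes (log2 difference 2.18 ± 0.31, adjusted p = 0.02), and EPOP, an accessory protein of PRC2, had 14.3 and 13 CPM in C1-sgKMT2D-Mes, against 5.08 and 3.04 CPM in C2-Mes (log2 difference 1.74 ± 0.32, adjusted p = 0.036) with an adjusted p of 0.08 without C1-sgKMT2D-Mes replicate 1 and 0.053 with the GC and length correction. The catalytic subunit EZH2 was not called, at 33 and 34.3 CPM in C1-sgKMT2D-Mes, against 21.4 and 23.7 CPM in C2-Mes (adjusted p = 0.11). Of 45 cell cycle genes 2 were higher and 0 lower, a share below the background, and the higher count was 0 without C1-sgKMT2D-Mes replicate 1 and 27 without C2-Mes replicate 2, with up to 8 lower when a C2-Mes library was left out. The proliferation antigen MKI67 had 425 and 401 CPM in C1-sgKMT2D-Mes, against 201 and 223 CPM in C2-Mes (log2 difference 0.94 ± 0.16, adjusted p = 0.029) and lost its call without either C1-sgKMT2D-Mes library (adjusted p = 0.39 and 0.3) and with voom (0.18).

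Some genes were detected in one group and undetected or nearly so in the other. With at least 1 CPM in both libraries of one group and at most 3 counts in each library of the other, 136 genes were on in C1-sgKMT2D-Mes and off in C2-Mes, and 97 were off in C1-sgKMT2D-Mes and on in C2-Mes; 112 and 78 of these were protein-coding. Among the genes on in C1-sgKMT2D-Mes were PLXDC2, a transmembrane protein (36.5 and 35.5 CPM in C1-sgKMT2D-Mes, at least 265-fold higher), ZNF704 (17.5 and 17.8 CPM, at least 130.2-fold), the glucose transporter family member SLC2A10 (13.4 and 11.9 CPM, at least 93.3-fold), the channel TRPC4 (9.16 and 9.94 CPM, at least 70.4-fold), MGMT, which repairs alkylated guanine (8.87 and 7.57 CPM, at least 60.6-fold), and EPDR1 (7.95 and 7.13 CPM, at least 55.6-fold); all had no count in C2-Mes. Off in C1-sgKMT2D-Mes were CES1, a carboxylesterase (187 and 168 CPM in C2-Mes, at least 1380.5-fold lower), LINGO2 (16.4 and 20.8 CPM in C2-Mes, at least 145-fold lower), NETO1, a glutamate receptor auxiliary protein (17.4 and 13.7 CPM in C2-Mes, at least 121-fold lower), and ABCC9, a subunit of potassium channels (13.7 and 10.9 CPM in C2-Mes, at least 95.8-fold lower). EDNRA, the endothelin receptor, had 0.126 and 0.0438 CPM in C1-sgKMT2D-Mes, against 911 and 313 CPM in C2-Mes (log2 difference -12.74 ± 0.98, adjusted p = 0.0073). Without C1-sgKMT2D-Mes replicate 1 the log2 difference was -13.61 for EDNRA, and without C2-Mes replicate 1 it was -11.76 for EDNRA.

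These genes were also looked up in the other groups, as a description only. The shares of all protein-coding genes on or off in those groups were not computed, so the counts have no background. Of the 112 protein-coding genes on in C1-sgKMT2D-Mes and off in C2-Mes, 49 were also on in C1, 68 were off in C2-Epi and 90 were on in C1-sgEED-Mes. For 14 of them, the gene was on in C1, C1-sgControl and C1-sgKMT2D-Epi and off in C2-Epi. The ETS factor FLI1 is one of them, with 24.5 and 22.8 CPM in C1-sgKMT2D-Mes, against 0.0584 and 0 CPM in C2-Mes, a ratio of 1146 (95% counting interval 205 to 45318) over 1 count in C2-Mes. Others are MGMT, ZNF569, at 5.98 and 5.69 CPM in C1-sgKMT2D-Mes and no count in C2-Mes (at least 43-fold higher), and the actin-associated LIMCH1, at 3.85 and 5.08 CPM in C1-sgKMT2D-Mes and no count in C2-Mes (at least 32.9-fold higher). FLI1, ZNF569 and LIMCH1 were chosen after their values were seen. Of the 78 genes off in C1-sgKMT2D-Mes and on in C2-Mes, 48 were off in C1, and 5 were off in C1, C1-sgControl and C1-sgKMT2D-Epi and on in C2-Epi. Among 195 tested zinc finger (ZNF) genes of chromosome 19, 16 were higher (8.21%) and 1 lower (0.513%), against 7.03% and 7.21% of all protein-coding genes tested.

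Markers of other cell types were also summed. Endothelial markers, 10 genes, summed to 4.98 and 4.77 CPM in C1-sgKMT2D-Mes and 20.04 and 32.5 CPM in C2-Mes, and the 3 measured ones were all lower: PECAM1 had 4.31 and 4.03 CPM in C1-sgKMT2D-Mes, against 16.6 and 25.5 CPM in C2-Mes, VWF had 0.251 and 0.175 CPM in C1-sgKMT2D-Mes, against 1.64 and 5.18 CPM in C2-Mes, and CLDN5 had no count in C1-sgKMT2D-Mes, against 1.29 and 1.44 CPM in C2-Mes. The endothelial cadherin CDH5 and the receptor TEK had no count in C1-sgKMT2D-Mes. Skeletal muscle markers summed to 9.5 and 7.48 CPM in C1-sgKMT2D-Mes and 31.4 and 32.6 CPM in C2-Mes, and neural ones to 111 and 104 CPM in C1-sgKMT2D-Mes and 98.5 and 114 CPM in C2-Mes, which overlap. Of 6 measured neural markers 1 was higher and 0 lower: NEFM, a neurofilament chain, had 33.8 and 32.6 CPM in C1-sgKMT2D-Mes, against 11.6 and 7.41 CPM in C2-Mes (log2 difference 1.79 ± 0.28, adjusted p = 0.026). The neuronal and glial markers SOX10, RBFOX3 and STMN2 had no count in the 4 libraries. The part of these markers in the results was not tested. Without C2-Mes replicate 2 the log2 difference was -2.92 for VWF.

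Position along the chromosomes was a property the choice of libraries did not use. The genome was cut into 287 windows of 10 Mb with at least 10 tested genes of at least 5 CPM, and 29 windows had a median log2 difference of at least 0.5 in size, a threshold chosen after seeing the data. Of these, 10 were higher and 19 lower, 27 had the same sign in the epithelial comparison, and 14 passed the threshold there too in that direction. The comparisons share no libraries, and Pearson's r across windows was 0.52, a description over neighbouring regions with shared lines. Genes in the 29 windows were called more often (314 of 1075, 29.2%) than genes outside them (12.2%), a description only, since the same differences chose the windows. Of the called genes outside these windows, 939 were higher and 859 lower.

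Chromosome 11 held the clearest blocks. Between 70 and 80 Mb the median was -1.32 over 66 genes in the mesenchymal and -1.23 in the epithelial comparison, and 42 genes were lower and 1 higher. Between 80 and 140 Mb, which holds EED, the median was 0.83 over 180 genes in the mesenchymal and 1.02 in the epithelial comparison, and 58 genes were higher and 3 lower. Against C1, the first block had a median of -0.15 in C1-sgKMT2D-Mes and 1.13 in C2-Mes, and the second -0.06 in C1-sgKMT2D-Mes and -0.85 in C2-Mes, so that C2-Mes stood apart from C1 and C1-sgKMT2D-Mes stayed near it. C2-Epi showed the same, at 0.95 and -0.88. Lower blocks with the same sign in epithelial cells lay on chromosome 3 from 140 to 200 Mb (-0.66 and -0.46, 170 genes), on chromosome 18 up to 20 Mb (-0.98 and -0.82, 41 genes) and at the end of chromosome 8 from 140 to 150 Mb (-0.87 and -0.62, 66 genes). The X chromosome up to 20 Mb was higher in both (0.59 and 0.66, 48 genes). On chromosome 9, the window from 100 to 110 Mb was lower in mesenchymal cells (-0.66) and higher in epithelial cells (0.36). Whether DNA copy number differs there was not tested.

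**Figure D4:**
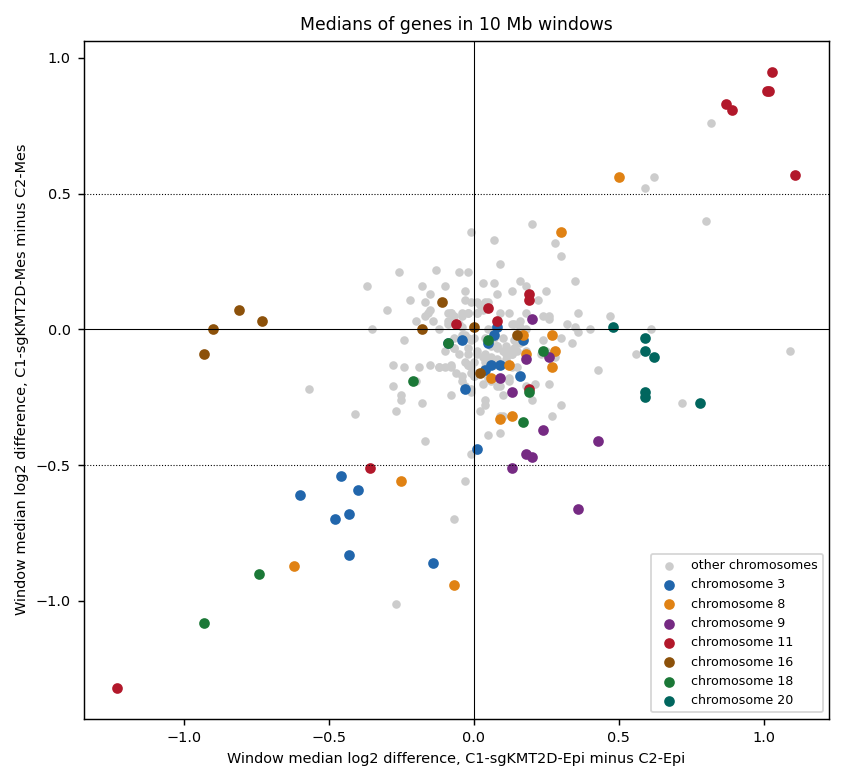
Median log2 difference of the genes in each 10 Mb window, C1-sgKMT2D-Mes minus C2-Mes on the vertical axis and C1-sgKMT2D-Epi minus C2-Epi on the horizontal axis, with windows of 7 chromosomes coloured and dotted lines at 0.5 and -0.5. Windows of chromosome 11 reach -1.32 and -1.23 at the lower left and lie around 0.83 and 1.02 at the upper right, while several of chromosomes 16 and 20 depart from 0 mainly in epithelial cells.

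The epithelial groups showed which mesenchymal differences were shared. Of 1071 genes higher in C1-sgKMT2D-Mes, 882 were measured in epithelial cells, where 479 (54.3%) were higher and 168 (19%) lower in C1-sgKMT2D-Epi, against 27.7% and 26.7% of genes not called in mesenchymal cells. Of 1041 genes lower in C1-sgKMT2D-Mes, 553 of 879 measured (62.9%) were lower and 134 (15.2%) higher. The difference between the comparisons was itself called for 605 of the higher genes (56.5%) and 555 of the lower genes (53.3%), against 16.6% of genes not called. That test contains the same mesenchymal difference that chose these genes, so a larger share among them is built in and is a description only. GATA3, higher in the mesenchymal comparison, had 11.4 and 10.9 CPM in C1-sgKMT2D-Epi, against 1.7 and 0.999 CPM in C2-Epi in the epithelial one (log2 difference 3.03, adjusted p = 3.5e-06; interaction log2 -0.01, adjusted p = 1). TNC and DSP were called in opposite directions in the 2 states.

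**Figure D5:**
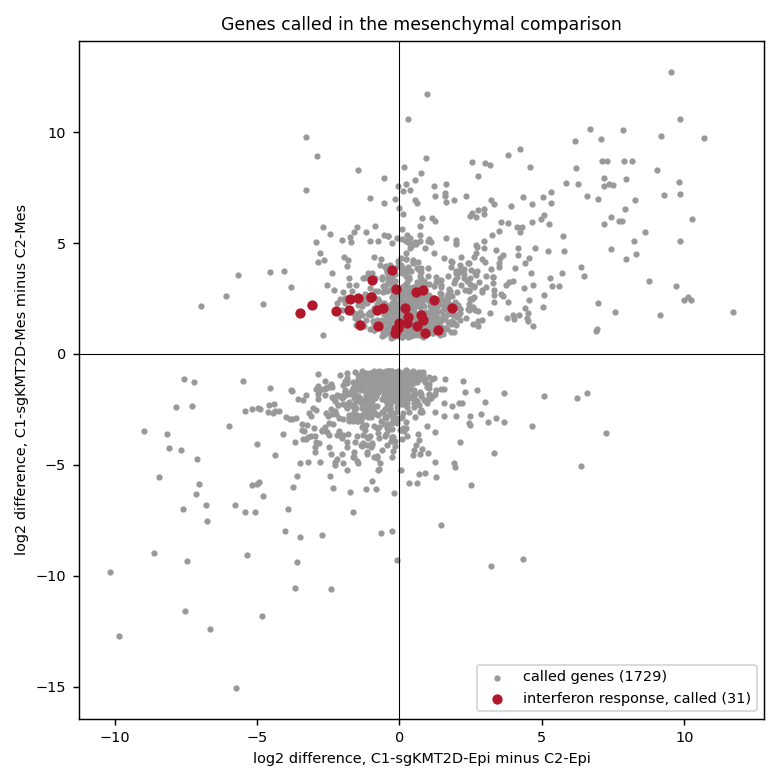
Log2 difference of the genes called in mesenchymal cells (vertical axis, C1-sgKMT2D-Mes minus C2-Mes) against their log2 difference in epithelial cells (horizontal axis, C1-sgKMT2D-Epi minus C2-Epi), with interferon response genes in red. Of the higher genes measured in epithelial cells 54.3% were called higher there, and of the lower ones 62.9% lower; the 31 interferon genes measured in both lie above 0 on the vertical axis on either side of 0 on the horizontal one.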

How the data were processed

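RNA was extracted from cultured or sorted HMLER cells and sequenced, per the labels' protocols. The authors deposited raw counts per gene, made with STAR 2.7.1a on GRCh38 and featureCounts, per the submitters' processing notes. Not given in the sources used here are the annotation release, the strand setting and how multiply mapped reads were counted. GENCODE 29 gave symbols for 56868 of 60448 genes (94.1%), and the others held at most 0.0463% of a library. Counts were fitted in R 4.3.3 with edgeR 4.0.16 (filterByExpr with a minimum count of 10, TMM, robust quasi-likelihood test, no replicate block) on the 4 libraries compared, and on 8 for the interaction with the epithelial groups. The adjusted p threshold was 0.05. Depth ran between 18872124 and 31950649 counts per library, and counting intervals and floors of 3 counts cover counting error only.

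The libraries, gene lists, tests and promoter motif were chosen with earlier results of these data known. Named genes were the 10 highest and 10 lowest called genes with at least 5 CPM and no overlap, from each list up to 4 called genes of 1 CPM or more, the 6 called genes with the highest level and a log2 difference of at least 1, and a set list of state genes, of which the text prints a part. Genes outside that rule are named as such in the text. A few genes that the rule names are not reported here. The 38 lists, described by counts and medians with no test of the list, cover epithelial, basal, luminal and mesenchymal genes, collagens and their processing, other matrix, proteases, integrins, EMT factors, TGF-beta, Wnt, Notch, growth factor, RAS-MAPK, interferon, NF-kB, antigen presentation, proliferation, cyclin D and CDK inhibitor, cholesterol and fatty acid, hypoxia, stress, developmental, HOX, protocadherin, imprinted, cancer-testis, COMPASS, Polycomb, contractile, YAP, axon guidance and surface genes, and leukocyte, endothelial, neural and muscle markers. Alternatives were RLE scaling, library totals, no filter, DESeq2 1.42.0 and edgeR on all 16 libraries. Others were a replicate block, a GC content and length correction, and each library left out. The voom fits (limma 3.58.1, with quality weights) always used all 16 libraries. The fit was also run on simulated counts with the same spread in all 4 libraries. That setting does not cover the unequal spread of the real pairs. Figures were drawn with matplotlib 3.10.9 in Python 3.11.15.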

Additional observations from a re-analysis of the deposited data

Results flagged for a closer look

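The difference between C1-sgKMT2D and C2 was set against itself in the mesenchymal and the epithelial state, and the difference between the states was tested (edgeR's quasi-likelihood test of the interaction, 17198 genes, 8 libraries). It was more positive in mesenchymal cells for 1832 genes and more negative for 1720. Leaving out 1 library gave 761 to 4561 and 586 to 4604. Of 119 genes named in the report with this test, not counting KRT18, 64 were called, 37 more positive and 27 more negative, against 20.7% of all genes tested. Many of them were named for their mesenchymal difference, which is part of the interaction, so this count is no result about them. All values that follow are log2 interactions.

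Among interferon and antigen presentation genes the interaction was 4.34 for IFIT1, 4.06 for IFI6, 3.06 for ISG15, 10.38 for HLA-DPB1, 3.74 for HLA-F and 2.85 for HLA-B. Among matrix and contractile genes it was 5.08 for EFEMP1, 4.91 for CCN2, 4.06 for THBS1, 3.88 for ANKRD1, 3.49 for COL12A1, 2.76 for TAGLN, 1.16 for FN1, 0.98 for TPM1 and 0.85 for ITGA10. COL3A1 (-2.44), DCN (-9.73), LUM (-4.62), TNC (-4.80), and COL14A1 (-10.70) were more negative; COL3A1 and DCN were higher with the guide in both states, less so in mesenchymal cells.

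State genes with a positive interaction were DSP (4.38), CDH11 (5.10), KRT14 (3.02), KRT17 (2.28), IGFBP7 (2.05) and SOX9 (1.82). Negative ones were MAL2 (-6.43), PRRX1 (-2.66), ZEB2 (-2.33), VIM (-1.34) and KRT18 (-0.82). Signalling, developmental and chromatin genes on the positive side were BMP4 (6.43), SLIT3 (6.22), TCF7L1 (5.13), HES1 (4.73), H19 (4.18), HOXB7 (3.07), MEG3 (2.42), EPOP (1.29), RBBP7 (1.15), DKK1 (1.02) and KDM6A (0.77). RAS-MAPK, cyclin and Wnt genes on the negative side were DUSP4 (-3.62), HRAS (-2.23), ETV4 (-1.57), SPRY4 (-1.34), CCND1 (-1.01) and FZD8 (-3.99). Over the 38 measured RAS-MAPK members the interaction was called positive for 8 and negative for 7, against 10.7% and 10.0% of all genes tested. The axon guidance ligands SEMA6A (-3.89) and SEMA7A (-3.49) were negative, and the neurofilament gene NEFM (2.15) was positive. Of the metabolic and stress genes, TRIB3 (-3.43), CHAC1 (-2.91), SLC7A5 (-2.66), FASN (-2.02), ASNS (-1.96) and SCD (-1.94) were negative and EGLN3 (6.11) was positive. Of 40 measured stress response members 15 were called negative and 3 positive. The counts were 10 and 1 of 32 for cholesterol and fatty acid synthesis, and 9 and 1 of 32 for hypoxia and glycolysis. Over all genes tested 10.0% were negative and 10.7% positive, so the positive counts of these lists are not above background.

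Genes with no count in 1 or more of the 4 groups have fitted values that depend on the prior count and are no bounds. Besides HLA-DPB1 and DCN these were ZNF704 (10.86), SLC2A10 (9.56), TRPC4 (9.38), LINGO2 (-7.05), BMP6 (-9.22), CES1 (-9.39) and ABCC9 (-11.28). CCN2, HES1, DSP, IFIT1, HLA-B, NEFM, TNC, MAL2 and BMP6 were called in opposite directions in the mesenchymal and the epithelial comparison.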

How the results depend on the processing

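The mesenchymal calls, 1071 higher and 1041 lower, kept to within 1.5 times under RLE scaling (1064 and 1023), library totals (1083 and 1037) and the replicate block (1348 and 1313). Without a filter 1610 were higher and 1636 lower. DESeq2 called 1411 and 1647. Fits of all 16 libraries called 1428 and 1946 with voom, and 2959 and 3144 with edgeR. The GC and length correction called 1714 and 1829, and that correction with the replicate block 1641 and 1740. The causes were not tested. Leaving out 1 library gave 670 to 5542 higher and 561 to 5487 lower genes. With a C2-Mes library left out, the lone one is assumed to vary like the C1-sgKMT2D-Mes pair, which is the closer one. The titles share replicate numbers, and deviations of same-numbered libraries correlated at -0.151 in the mesenchymal and -0.168 in the epithelial groups. These weak correlations gave no sign that the numbers pair the samples, but they cannot exclude it. With the pairing crossed, chosen after seeing the data, the block called 1504 higher and 1542 lower genes.

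Over all lists, 310 different genes were called, each counted once even where lists share it. All 16 libraries gave 590, and leaving out 1 library 231 to 765. The range of chromosome medians was 0.471 (0.463 to 0.906 with a library left out). In the epithelial comparison, 4416 higher genes became 2696 with all 16 libraries; leaving out a library gave 3989 to 4146 higher and 4096 to 4201 lower. Interactions more negative in mesenchymal cells numbered 2724 without a filter and 2664 with the GC correction; leaving out a library gave 761 to 4561 positive and 586 to 4604 negative ones.

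Signs turned only among genes not called in the main comparison. KMT2C was at 0.26 and -0.59 without C2-Mes replicate 1 or 2, EPCAM at 0.57 and -0.32, and ZEB2 at 0.50 and -0.18. KRT8 was at -0.11 and 0.09 without C1-sgKMT2D-Mes replicate 1 or 2, and at 0.01 without C2-Mes replicate 2. The common biological coefficient of variation over the 4 libraries was 0.247, and genes under the filter on low counts were not tested.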

Other observations

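Of 19 collagen processing genes 3 were higher and 4 lower in C1-sgKMT2D-Mes (36.8% called, against 13.3% of all genes tested), with 1 to 7 higher and 2 to 10 lower when 1 library was left out. Of 14 D-type cyclins and CDK inhibitors 1 was higher and 2 lower (21.4% called), with 1 to 7 higher and 1 to 6 lower when 1 library was left out. Of 28 cancer-testis genes 2 were measured and 0 were called. Chromosome medians differed between the states: the median log2 difference of chromosome 16 was 0.012 in the mesenchymal and -0.576 in the epithelial comparison, and that of chromosome 20 was -0.100 and 0.548.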
